A study of Eohaustorius estuarius with 16 samples.

Results

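The 200 contigs described here gave the brightest signals on the control arrays of the amphipod Eohaustorius estuarius, a small crustacean that burrows in estuarine sediment. For each contig with 1 or 2 spots per array, the log2 processed signal relative to the array's 75th percentile was averaged over the 8 control arrays, and the 200 contigs with the highest mean were taken out of 8457 contigs (8507 with those printed 10 or 11 times). Control levels therefore chose the members, which makes a fall with cyfluthrin likelier than a rise. The shifts below are descriptions for that reason, and selections made on other arrays are set beside them.

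The cyfluthrin group was 8 samples from whole amphipods kept for 10 days in sediment spiked at a nominal 1.6 µg/kg, and the control group was 8 samples from whole amphipods kept for 10 days in sediment that had received solvent alone. The study asked how comparable such array data are between laboratories. The RNA extracts came from a single laboratory, and laboratory B labelled and hybridised the ones measured here. No label says which animals shared a container or what stage or sex they were, so p-values measure only the spread between these samples.

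Cyfluthrin is a pyrethroid, an insecticide class that delays the closing of voltage-gated sodium channels in nerve membranes. The most plentiful transcripts of a whole crustacean commonly code for ribosomal proteins, mitochondrial respiratory subunits, muscle actins and myosins, cuticle proteins, digestive enzymes and the oxygen carrier haemocyanin. Some of these are made in every cell, and others only in a single tissue or at a stage of the moult. The contigs are known by number alone, so none could be assigned to such a class, the labelled tissue could not be checked against marker genes, and several contigs may be pieces of 1 transcript. In whole bodies, fewer cells of a type and less RNA per cell cannot be told apart.

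Processed signals had a 75th percentile of 636 ± 111 on the cyfluthrin arrays and 614 ± 88.4 on the control arrays (SD, n = 8 each). The arrays lay on 2 slides, each with 4 arrays of each group, and a row of a slide held 1 group only. Within a slide, an effect of the row therefore cannot be told apart from one of cyfluthrin. Of the contigs, 7574 were bright enough to be tested, and all 200 members were among them. Unless another n is given, values below are over 8 arrays a group.

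The members covered a wide range of brightness. Their control means ran from 3.59 to at least 6.72 log2 units above the 75th percentile, with a median of 4.22. This corresponds to 12-fold the 75th percentile for the lowest member, 18.6-fold for the median and at least 105-fold for the highest, whose spots were saturated on every control array. Every spot of every member was well above background on all 16 arrays, and 0 were marked as outliers. A spot's brightness also depends on its probe, so the order of the members is an order of signals and not of transcript numbers. Of the members, 60 had 1 spot and 140 had 2, that is 30% with 1 spot against 26.6% of all 8457 contigs. Contig numbers were low among the members, with a median of 2270 against 4315 for the 8457 contigs, and 144 of the 200 lay below that middle. What the numbering follows is not given in the sources used here. The 50 contigs printed 10 or 11 times were left out by the rule, and their highest control mean, 3.01, lay below the limit.

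The limit of 200 cut through a continuous range. The last members inside were contig_3383 at 3.60, contig_1253 at 3.59 and contig_1768 at 3.59, and the first outside were contig_4588 at 3.59, contig_1621 at 3.58 and contig_2086 at 3.57. In all, 44 members lay within 0.25 log2 units of the limit. Controls 1 to 4 alone chose 194 of the same 200, controls 5 to 8 alone chose 190, and the mean over all 16 arrays chose 186. Each of these choices used control arrays that the rule also used, so the overlap is partly built in.

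The members were lower rather than higher with cyfluthrin when arrays were scaled to their 75th percentile. The median log2 change, cyfluthrin minus control, was -0.21 among the members (quartiles -0.42 and -0.04, range -3.92 to 0.88), against 0.01 among all tested contigs (quartiles -0.19 and 0.19). The change was below 0 for 159 members, 79.5%, where 48.8% of all tested contigs were. On the cyfluthrin arrays the members' median difference from the control mean ran from -0.51 on replicate 2 to 0.04 on replicate 4, and each control array's difference from the other controls ran from -0.17 to 0.16. Of the cyfluthrin arrays, 5 lay below every control array, and replicates 3, 4 and 5 lay within the control range. The same median over all tested contigs ran from -0.22 on cyfluthrin replicate 1 to 0.19 on cyfluthrin replicate 2, and from -0.06 to 0.13 on the control arrays. On cyfluthrin replicate 1 the members, also at -0.22, were thus no lower than the tested contigs. On cyfluthrin replicates 3 and 4 the members, at -0.08 and 0.04, lay close to the tested contigs, at -0.07 and 0.06. The gap was widest on cyfluthrin replicates 2, 7 and 8, at -0.51, -0.34 and -0.19 against 0.19, 0.07 and 0.19. Among the controls the widest gap downward was on replicate 7, at -0.17 against 0.07.

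**Figure D1:**
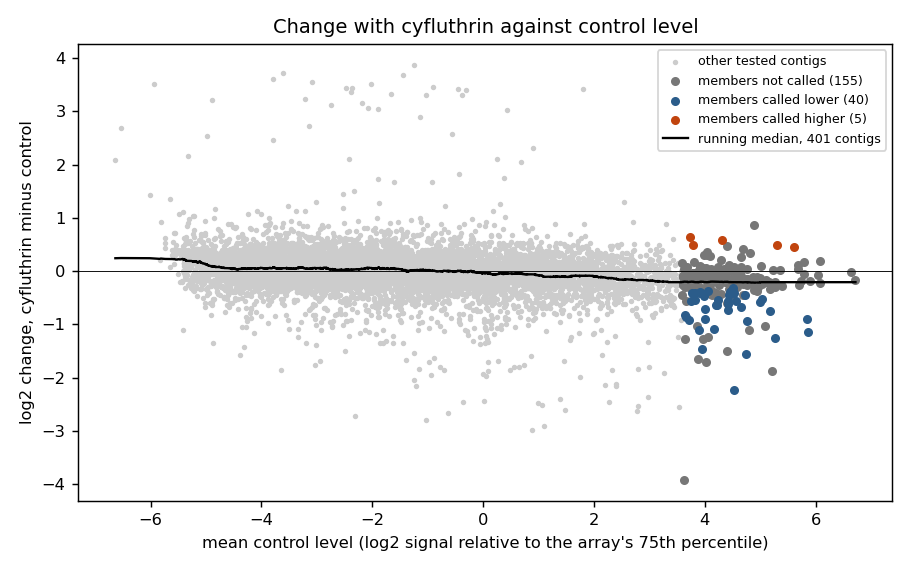
Log2 change (cyfluthrin minus control) of each tested contig against its mean control level in log2 units relative to the array's 75th percentile. Grey dots are the other tested contigs, larger points the 200 members (orange called higher, blue called lower, dark grey not called), and the line is a running median over contigs ordered by level. The members form the right-hand end, where 40 were called lower and 5 higher, and the running median slopes below 0 well before the members begin.

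Of the 200 members, 5 were called higher and 40 lower at an adjusted p under 0.05 in the limma fit over all tested contigs, which called 3.75% of all tested contigs higher and 3.66% lower. The calls made up 2.5% and 20% of the members, or 22.5% in either direction against 7.41% of all tested contigs, and since control levels chose the members nothing is read from the difference. Most of the called changes were small, with a median log2 change of 0.49 among the 5 and -0.60 among the 40. Changes of at least 2-fold were called for 0 members in the upward direction (0.766% of all tested contigs) and for 7 in the downward direction (0.568%). At an unadjusted p under 0.05, 8 members were higher (11.7% of all tested contigs) and 78 lower (10.1%). The groups did not overlap for 0 members that were higher (1.14% of all tested contigs) and for 10 that were lower (0.779%), of which 8 were called.

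The count of falls rested in part on single arrays and on the scaling. It was 26 without cyfluthrin replicate 2, 24 without cyfluthrin replicate 7 and 26 without control replicate 8, against 40 with all arrays. Quantile normalization, which gives every array the same distribution of signals by construction, brought the median change of the members to -0.01 and called 14 members higher and 18 lower. The authors' deposited values, which matched median-centred quantile-normalized signals, gave -0.02 with 13 higher and 18 lower in the same limma test. At an unadjusted p under 0.05, 32 members were higher and 45 lower after quantile normalization (12.4% and 10.5% of all tested contigs). Other settings lowered both counts: median scaling called 1 higher and 24 lower, scaling to 6 spike-in probes 0 and 15, and normexp background correction 0 and 20. Quantile normalization still called all 5 rises and 18 of the 40 falls, whereas 1 of the 5 rises was still called with median scaling and 0 with spike-in scaling or normexp. The 45 called members kept their sign under each of these settings. Which scaling is closer to the amounts of RNA was not tested.

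The lean toward falls did not begin at the limit. By rank of control level, the median log2 change was -0.20 for ranks 1 to 50, -0.22 for ranks 51 to 100, -0.26 for ranks 101 to 150 and -0.19 for ranks 151 to 200. Among ranks 201 to 400, outside the members, it was -0.20, with 28 contigs called lower and 3 higher. It was -0.13 for ranks 401 to 800, -0.07 for ranks 801 to 1600, -0.02 for ranks 1601 to 3200 and 0.05 for the dimmer rest. The members formed the bright end of a gradient, and the next 200 contigs had a median close to theirs.

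With the same scaling, the lean was also measured for members chosen on arrays that did not enter the comparison. The 200 contigs chosen on controls 1 to 4 had a median change of -0.22 over replicates 5 to 8 of both groups, where all tested contigs had 0.09, and 78.5% of them lay below 0 against 40.3%. Those chosen on controls 5 to 8 had a median of -0.16 over replicates 1 to 4, where all tested contigs had -0.08, and 76% lay below 0 against 59.7%. With 4 arrays a group, limma called 0 higher and 3 lower in the first of these comparisons and 0 higher and 2 lower in the second. At an unadjusted p under 0.05 there were 3 higher and 49 lower in the first, where 8.11% of all tested contigs were higher and 5.86% lower. There were 7 and 30 in the second, where 4.38% and 4.81% of all tested contigs were. The 200 brightest by the mean over the cyfluthrin arrays, a choice that favours rises, had a median of -0.12, with 12 called higher and 27 lower. The median was below 0 under each of these choices, and relative to all tested contigs it was smaller over replicates 1 to 4 than over replicates 5 to 8.

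The greatest rise among the called members was that of contig_921, measured by 2 spots. Its level was 4.07 at the lowest, 4.37 at the median and 4.85 at the highest on the cyfluthrin arrays, against 3.46, 3.72 and 4.25 on the control arrays (log2 change 0.64 with an SE of 0.14, limma adjusted p = 0.00844). The groups overlapped only through control replicate 5, the highest control. The call was lost with median scaling (adjusted p = 0.0522), with spike-in scaling over 6 probes (adjusted p = 0.0970) and after normexp background correction (adjusted p = 0.137).

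The next was contig_1367, measured by 1 spot. Its level was 4.57 at the lowest, 4.87 at the median and 5.22 at the highest on the cyfluthrin arrays, against 4.04, 4.27 and 4.66 on the control arrays (log2 change 0.58 with an SE of 0.13, limma adjusted p = 0.00886). Again only control replicate 5 lay above the lowest cyfluthrin array. The call was lost with spike-in scaling over 6 probes (adjusted p = 0.170) and after normexp (adjusted p = 0.120). The other 3 members called higher had log2 changes of 0.46 to 0.49.

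The greatest fall among the called members was that of contig_1777, measured by 1 spot. Its level was 1.36 at the lowest, 2.40 at the median and 2.97 at the highest on the cyfluthrin arrays, against 3.64, 4.58 and 5.48 on the control arrays (log2 change -2.23 with an SE of 0.28, limma adjusted p = 9.12e-05). All 8 cyfluthrin arrays lay below all 8 control arrays, a 4.68-fold lower mean. Its place by brightness moved from rank 66 by control mean to rank 526 by cyfluthrin mean.

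The next fall was that of contig_6751, measured by 2 spots. Its level was 1.93 at the lowest, 3.28 at the median and 4.67 at the highest on the cyfluthrin arrays, against 4.02, 4.69 and 5.37 on the control arrays (log2 change -1.55 with an SE of 0.33, limma adjusted p = 0.00758). The groups overlapped through cyfluthrin replicate 1 alone, which lay among the controls. Both this fall and that of contig_1777 were called under every scaling, background correction and block run over the 16 arrays. The other called falls had log2 changes of -1.45 to -0.32.

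A larger mean difference was not called where the samples varied widely. The log2 change was -1 or less for 11 members that were not called, and 10 of these had an SD over 1 in at least 1 group. The extreme was contig_1413, picked after its values were seen, with -2.53 at the lowest, -2.06 at the median and 4.53 at the highest on the cyfluthrin arrays, against -1.98, 3.99 and 6.43 on the control arrays (log2 change -3.92 with an SE of 1.31, limma adjusted p = 0.0797). On the cyfluthrin side replicates 1 and 8 were bright and replicate 6 was between. On the control side replicate 5 was dim, 4 controls lay above every cyfluthrin array, 4 cyfluthrin arrays lay below every control, and the other arrays overlapped.

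Most members were steady between samples. Their median SD was 0.28 over the cyfluthrin arrays and 0.20 over the control arrays, against 0.38 and 0.29 for all tested contigs. An SD under 0.2 was found for 44 members over the cyfluthrin arrays and for 97 over the control arrays. Where a contig had 2 spots, spots of the same array differed by a median SD of 0.060 among the members, while samples of a group differed by 0.246, a median ratio of 4.48 (140 members). For all tested contigs with 2 spots these values were 0.099, 0.342 and 3.21 (5539 contigs). The smaller spread was not particular to the members. Median SDs were 0.29 over cyfluthrin and 0.20 over control arrays for ranks 201 to 400, 0.26 and 0.20 for ranks 401 to 800, and 0.27 and 0.21 for ranks 801 to 1600. The contigs beyond rank 3200 had 0.47 and 0.35.

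The spread was higher with cyfluthrin for 154 members, 77%, a share near the 75.7% of all tested contigs. The median ratio of SDs, cyfluthrin over control, was 1.32 for the members and 1.33 for all tested contigs. The ratio was highest for contig_531, at 6.30. This contig, measured by 1 spot, had the lowest control SD of the members, with a level of 3.47 at the lowest, 4.09 at the median and 4.89 at the highest on the cyfluthrin arrays, against 4.28, 4.34 and 4.48 on the control arrays. Its cyfluthrin arrays lay on both sides of the narrow control range, and its mean change was -0.20 (SE 0.16, limma adjusted p = 0.554). An SD ratio is high by choice where the control SD is the lowest of 200.

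The member with the next lowest control SD was contig_1222, also with 1 spot. Its level was 4.91 at the lowest, 5.09 at the median and 5.34 at the highest on the cyfluthrin arrays, against 5.29, 5.44 and 5.49 on the control arrays (log2 change -0.28 with an SE of 0.084, limma adjusted p = 0.0506). Only cyfluthrin replicates 4 and 6 reached the control range, and leaving out either brought the adjusted p to 0.027. With quantile normalization the log2 change of contig_1222 was -0.05 (limma adjusted p = 0.816), and in the authors' deposited values -0.12 (adjusted p = 0.474). The limma adjusted p was 0.124 with median scaling, 0.346 with 6 spike-in probes and 0.212 with normexp. The second highest ratio of SDs, 3.68, belonged to contig_5617, and it rested on cyfluthrin replicate 2, where the level was 1.33 while the other 7 cyfluthrin arrays lay between 3.69 and 5.30. The control arrays of contig_5617 lay between 4.59 and 5.77.

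**Figure D2:**
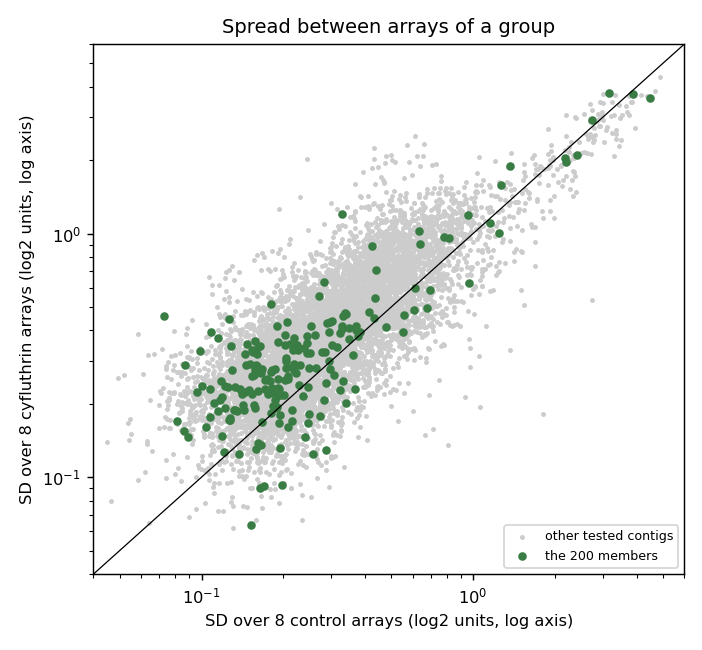
SD over the 8 cyfluthrin arrays against SD over the 8 control arrays, in log2 units on log axes, for the 200 members (green) and the other tested contigs (grey). The line marks equal SDs: 154 of the 200 members lie above it, and a small set of members stands apart at the upper right with an SD over 1 in both groups.

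A few members varied far more than the rest. An SD over 1 was found for 14 members over the cyfluthrin arrays (7%, against 7.51% of all tested contigs) and for 11 over the control arrays (5.5%, against 3.55%), and all 11 were among the 14. The limma fit called 0 of these 14, and 5 had an unadjusted p under 0.05. The 10 most variable members held 76.9% of the members' summed variance within groups. So the members were steady in the median while a small number of them held most of the variance.

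The highest control SD was that of contig_130, at 4.47. Its level was -3.05 at the lowest, 3.96 at the median and 6.77 at the highest on the cyfluthrin arrays, against -3.60, 5.79 and 6.96 on the control arrays (log2 change -1.27 with an SE of 1.88, limma adjusted p = 0.786). Cyfluthrin replicates 4 and 7 and control replicates 4 and 5 were dim, cyfluthrin replicate 2 lay at 1.17, and the other arrays were bright. Its control mean of 3.65 thus averaged 6 bright arrays, between 4.91 and 6.96, and 2 dim ones.

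The same arrays were dim for contig_3092, which had the second highest control SD at 3.88. Its level was -3.08 at the lowest, 4.38 at the median and 6.68 at the highest on the cyfluthrin arrays, against -2.30, 5.96 and 6.75 on the control arrays, with cyfluthrin replicates 4 and 7 and control replicates 4 and 5 the dim ones in their groups. For contig_2394 it was -2.99, 4.18 and 6.76 on the cyfluthrin arrays, against -1.80, 5.69 and 6.95 on the control arrays, again with these 4 arrays the dimmest in their groups. The limma adjusted p-values for the changes of contig_3092 and contig_2394 were 0.775 and 0.672, so group means did not differ beyond the spread. Of the members, 4 followed contig_130 over the 16 arrays with a Pearson r of 0.8 or more, a limit set after its values were seen; 89 tested contigs did so in all. The other followers among the members were contig_724 and contig_1013. Dim arrays were found in both groups and on both slides.

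Together contig_130 and these 4 members held 56.1% of the members' variance within groups. The first principal component of the within-group deviations held 64.6% of the variance over all members and 27.3% without these 5. None of these 5 was among the called members, and without them the median change was -0.20.

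The median correlation between the within-group deviations of a pair of members was 0.26, and 0.28 without contig_130 and its followers, against 0.04 for pairs of tested contigs, given as a description over 16 arrays that share scaling and depth of signal. Of 19900 pairs of members, 8 had a correlation of 0.95 or more, 6 of them without contig_130 and its followers. Some of these pairs joined contig_2182, contig_7011 and contig_2370, picked after their values were seen. All were brightest on control replicate 2, at 5.82, 5.88 and 6.42, and dimmest on cyfluthrin replicate 1 among all 16 arrays, at 0.79, 0.83 and 2.93. Whether they are pieces of 1 transcript is not given in the files.

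**Figure D3:**
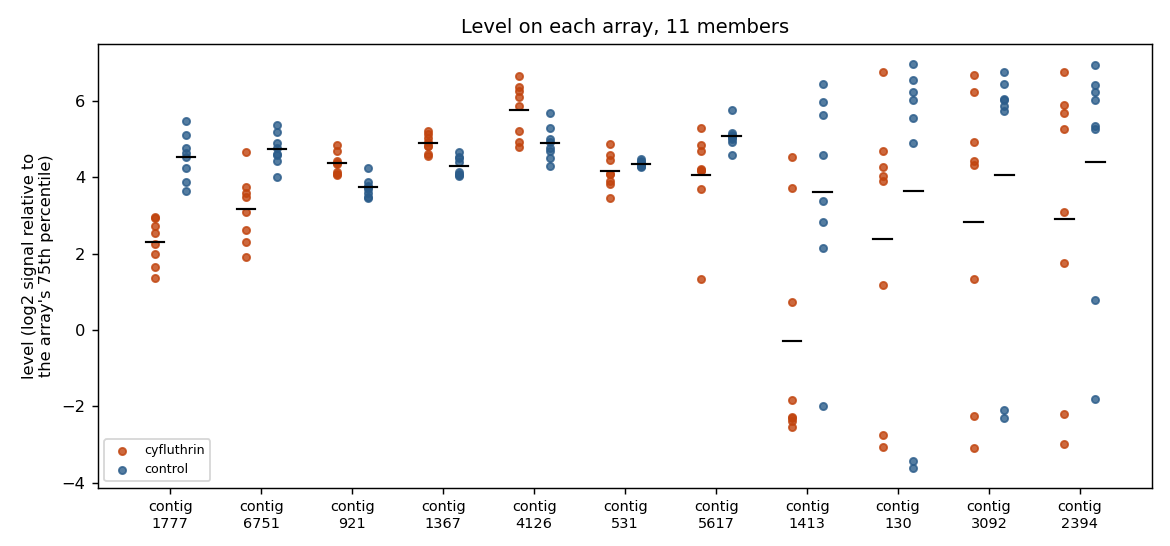
Level of 11 members on each array, in log2 units relative to the array's 75th percentile, with cyfluthrin (orange) left of control (blue) for each contig and bars at the group means. The groups are apart for contig_1777, lie mostly apart for contig_921 and contig_1367, and split into bright and dim arrays within both groups for contig_130, contig_3092 and contig_2394.

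The set of brightest contigs turned over in part between the groups' means. Of the 200 members, 173 were also among the 200 brightest by cyfluthrin mean, and 27 left. The 27 that left had a median rank of 155 by control mean and 310 by cyfluthrin mean, and 13 of them were called lower. The 27 contigs that entered came from control ranks down to 1722, and 7 of them were called higher. Low cyfluthrin means picked the 27 that left and high ones the 27 that entered, so nothing is read from these ranks and calls. Of all tested contigs, 3.66% were called lower and 3.75% higher. Array by array, 118 members were in the 200 brightest of all 8 cyfluthrin arrays and 133 in those of all 8 control arrays. At the other end 6 members were in the 200 brightest of no cyfluthrin array.

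Fewer members kept their place on a cyfluthrin array than on a control array. On the cyfluthrin arrays 161 ± 4.67 members were among the array's own 200 brightest (151 at the lowest, 161.5 at the median, 166 at the highest). For each control array the 200 were chosen on the other 7 controls, and 175 ± 4.12 were kept (169, 175.5 and 181; SD, n = 8 each). All 8 cyfluthrin arrays kept fewer than every control array. When the 200 were instead chosen on the other 7 arrays of the array's own group, 169 ± 9.43 were kept on the cyfluthrin arrays (152 to 180) and 175 ± 4.12 on the control arrays, and the groups overlapped.

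The members' share of all contig signal was 35.1% ± 1.91 on the cyfluthrin arrays (31.9% at the lowest, 35.8% at the median, 38.0% at the highest) and 37.8% ± 0.778 on the control arrays (36.7%, 37.6% and 39.2%; SD, n = 8 each). This share is a sum of linear signals within an array and needs no scaling between arrays. Of the cyfluthrin arrays, 7 lay below every control array, and replicate 4 lay within the control range. For the 200 brightest by the mean over all 16 arrays the shares were 35.8% on the cyfluthrin arrays and 36.7% on the control arrays. For the 200 brightest by cyfluthrin mean they were 35.6% on the cyfluthrin arrays and 35.1% on the control arrays, so the order of the groups depended on the choice.

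**Figure D4:**
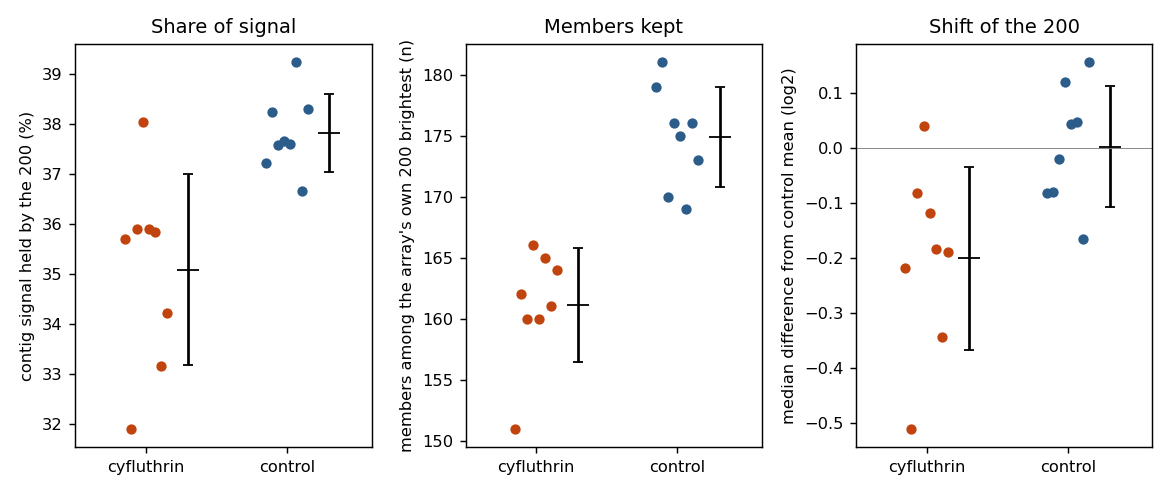
Each array's share of contig signal held by the members (left, percent), the number of members among its own 200 brightest (middle) and the members' median log2 difference from the control mean (right), with cyfluthrin (orange) left of control (blue). Points are arrays, and bars are means with SDs (n = 8 each). The vertical axes do not start at 0. All cyfluthrin arrays lie below all control arrays in the middle panel, and replicate 4 is the cyfluthrin array within the control range on the left.

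Saturation touched few members, but it touched the brightest. Saturated spots were found in 13 members, out of 16 contigs in all, and 90 member spots were saturated over the 16 arrays. An array had 2 saturated member spots at the lowest, 5.5 at the median and 12 at the highest with cyfluthrin, against 4, 4 and 9 in control. Cyfluthrin replicate 1 had the most, in 7 members. Of the 13 members, 6 were saturated only on cyfluthrin arrays, 1 (contig_1413) only on a control array, and the rest on arrays of both groups. Counted by arrays, 6 of the 13 were saturated on a single array. The limma fit called 1 of the 13, among the rises, and it had 1 saturated spot on cyfluthrin replicate 3.

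Both spots of contig_42 were saturated on all 16 arrays, so its level is a bound in both groups and no fold is given. Its median pixel signal was 65518 on every array, the full scale. Its scaled level nevertheless ran from 6.25 on cyfluthrin replicate 3 to 7.08 on cyfluthrin replicate 4, and from 6.29 to 7.0 on the control arrays. These are the arrays with the highest and the lowest 75th percentile of the cyfluthrin group, 796 and 463, so the scaled level of a spot at full scale followed the scaling value.

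The member with the highest control mean, contig_2392, was saturated on 6 of 8 cyfluthrin arrays and on all 8 control arrays. Its level was 6.24 at the lowest, 6.51 at the median and 7.11 at the highest on the cyfluthrin arrays, against 6.42, 6.73 and 7.04 on the control arrays, the control values being bounds. The measured log2 change was -0.16 (SE 0.12, limma adjusted p = 0.524). The groups overlapped, and since both groups held saturated spots no bound on the fold follows.

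**Figure D5:**
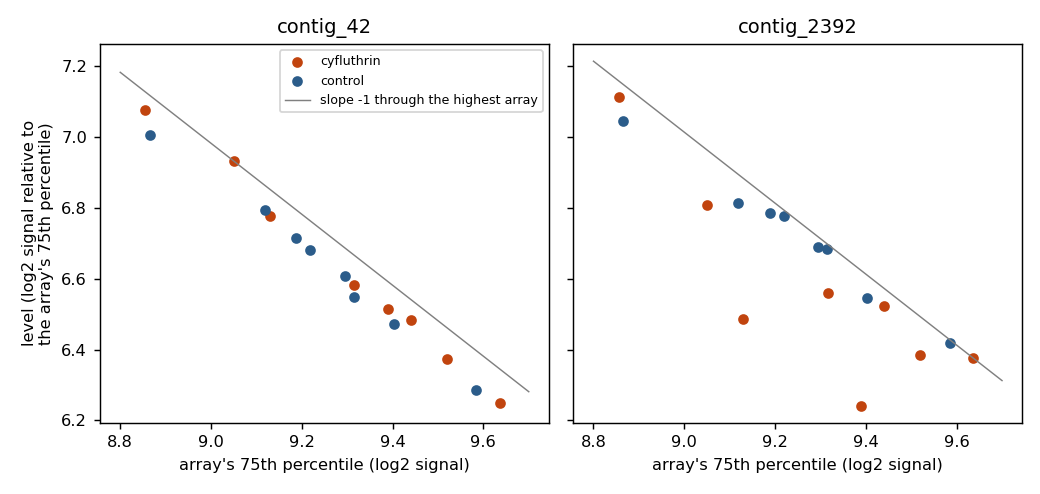
Level of contig_42 (left) and contig_2392 (right) on each array, in log2 units relative to the array's 75th percentile, against the log2 75th percentile of that array; cyfluthrin in orange, control in blue. The line has a slope of -1, the course of a signal fixed at full scale. All 16 arrays of contig_42 lie near such a line, and for contig_2392 cyfluthrin replicates 2 and 6 lie furthest below it.

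Other saturated members had unsaturated arrays in both groups. For contig_8297, saturated on 4 cyfluthrin and 2 control arrays, the level was 5.48 at the lowest, 6.35 at the median and 7.07 at the highest on the cyfluthrin arrays, against 5.03, 6.06 and 6.91 on the control arrays (log2 change 0.20, limma adjusted p = 0.770). The groups overlapped over most of their range. For contig_130, contig_2394 and contig_3092, 1 array of each group was saturated.

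The largest mean difference upward among the members was that of contig_4126, saturated on 2 cyfluthrin arrays and on 0 control arrays. Its level was 4.80 at the lowest, 5.99 at the median and 6.65 at the highest on the cyfluthrin arrays, against 4.31, 4.86 and 5.68 on the control arrays (log2 change 0.88 with an SE of 0.28, limma adjusted p = 0.0663). Both its spots were saturated on those 2 arrays, so 6.65 and the changes given here are limited by full scale. It did not pass the threshold, and 5 of 8 cyfluthrin arrays lay above every control array. It passed after quantile normalization (log2 change 1.06, adjusted p = 0.00901) and in the authors' deposited values, which are much alike (1.09, adjusted p = 0.0118 by the same test). It also passed without control replicate 4, cyfluthrin replicate 6 or cyfluthrin replicate 7 (adjusted p = 0.0473, 0.0330 and 0.0336). It did not pass with median scaling (limma adjusted p = 0.134), normexp (0.244), or 6 or 5 spike-in probes (0.0802 and 0.233). Without control replicate 3 the adjusted p was 0.123.

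The other members named by brightness differed little between groups. For contig_530, never saturated, the level was 5.69 at the lowest, 5.85 at the median and 6.11 at the highest on the cyfluthrin arrays, against 5.73, 6.04 and 6.37 on the control arrays (log2 change -0.22, limma adjusted p = 0.197). For contig_2945, saturated on 1 cyfluthrin array, it was 5.53, 6.03 and 6.33 on the cyfluthrin arrays, against 5.80, 6.01 and 6.24 on the control arrays (log2 change -0.07, limma adjusted p = 0.824). In both the groups overlapped, and neither passed the threshold. Without the 13 members that had a saturated spot, 4 members were called higher and 40 lower.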

How the data were processed

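The labels describe total RNA of whole bodies labelled with Cy3 and hybridised to 1-colour Agilent arrays, 8 cyfluthrin and 8 control samples. Per the file headers, the processed signal of the deposited scanner files is a spot intensity after background subtraction and detrending, with no normalization between arrays. The flags for saturation, background and outliers are other marks of the same deposited files. The headers name Agilent Feature Extraction 10.7.1.1, whereas the submitters' processing notes name version 9.1. The value table that the authors deposited holds log2 values, by steps that no source used here describes. Its columns correlated at 0.996 to 0.999 with quantile-normalized log2 signals whose contig median was set to 0, its column medians ran from -0.038 to 0.048, and its direction was the same.

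From the scanner files, log2 processed signals of contig spots were scaled by subtracting the array's 75th percentile. Non-uniform and population-outlier spots were set aside, control spots left out, saturated spots kept, and the spots of a contig averaged. Testing required that 50% or more of a contig's spots be well above background on 8 or more of the 16 arrays. Groups came from the sample labels and were compared with limma 3.58.1 (R 4.3.3; lmFit and eBayes, 2-sided, no covariate, Benjamini-Hochberg over 7574 contigs, threshold 0.05). The fit was run on simulated data with independent, normally distributed noise of equal spread in both groups. Most contigs here spread more with cyfluthrin, and some split into bright and dim arrays, so that run does not cover such contigs. The number of arrays limits the precision.

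The members, and the rules by which contigs were named, were chosen with earlier results of these data known. Named were the 5 highest control means, the 8 members saturated on most arrays, the 2 greatest called rises and falls, the 2 highest and lowest control SDs, the 2 highest SD ratios, 3 contigs on each side of the limit, and contig_130. Other contigs were picked after their values were seen, as is stated beside them. Alternatives were other scalings, normexp background correction with an offset of 50 on the median signal, other filters, blocks, choices of members, and each array left out in turn. The files pair contigs with no gene names, sequences or positions, so none are given.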

Additional observations from a re-analysis of the deposited data

Results flagged for a closer look

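Each group of 8 values was screened with Dixon's ratio, the distance of the extreme array from its neighbour divided by the range, against its 95% critical value. Of 58 such groups (the named contigs and measures of each array), 3 values passed it, and chance gives about 1 in 20. For contig_5617, cyfluthrin replicate 2 had a level of 1.33, while its group otherwise lay between 3.69 and 5.30. On cyfluthrin replicate 1, 151 members were among the array's own 200 brightest, and on the other 7 cyfluthrin arrays 160 to 166 were. On control replicate 3, the mean of 5 spike-in probes lay 0.17 log2 units above the 75th percentile, and on the other control arrays 0.94 to 1.16. These 5 leave out a probe that ran against the others. After this was seen, spike-in scaling was also run without this array.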

How the results depend on the processing

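Against 5 members called higher, 40 called lower and a median log2 change of -0.21 (limma), quantile normalization gave 14, 18 and -0.012, and the authors' deposited values gave 13, 18 and -0.018. Median scaling gave 1 and 24, spike-in scaling over 6 probes 0 and 15, and normexp 0 and 20 with a median of -0.34. Spike-in scaling over 5 probes, without a probe that ran against the others and chosen after seeing the data, gave 0 and 19 with a median of -0.45; it moved the median of all tested contigs to -0.24, and normexp moved it to 0.27. Without control replicate 3, also chosen after seeing the data, 6 probes gave 1 and 13 (median -0.18, all tested contigs 0.03) and 5 probes 0 and 15 (median -0.34, all -0.13). At an unadjusted p under 0.05, 8 members were higher and 78 lower with the 75th percentile (11.7% and 10.1% of all tested contigs). Quantile normalization gave 32 and 45 (12.4% and 10.5%), and the authors' values 31 and 44 (12.6% and 10.5%). Median scaling gave 6 and 68 (8.58% and 10.2%), and 6 spike-in probes again 6 and 68 (5.56% and 8.49%). The counts were 1 and 87 with 5 probes (1.53% and 14%) and 5 and 84 with normexp (10.2% and 7.12%). Slide 1 gave 7 and 34 (4.38% and 4.81%), and slide 2 gave 3 and 47 (8.11% and 5.86%). The members' median SD over cyfluthrin arrays, 0.28, became 0.37 with median scaling, 0.43 with normexp and 0.48 with 5 spike-in probes. Over control arrays, 0.20 became 0.27 with median scaling, and 0.31 and 0.36 with 6 and 5 spike-in probes. The causes were not tested. With fewer arrays, slide 1 alone gave 0 higher and 2 lower (median -0.17, all tested contigs -0.08) and slide 2 alone 0 and 3 (-0.23, all 0.09), both chosen after seeing the data; choices on the other slide's controls gave the same counts, 0 and 2, and 0 and 3. The 100 brightest held 3 higher and 22 lower, with 23.9% of signal on cyfluthrin and 25.2% on control arrays. The 400 brightest held 8 and 68, with 48.7% and 52.1%. Members with 2 spots numbered 2 of the higher calls, and those with 1 spot 3, with 11 of the lower. Members by cyfluthrin mean gave 12 higher. The control share of 37.8% was 36.7% for members by all 16 arrays, 35.1% by cyfluthrin arrays and 36.2% without contig_130 and its followers, chosen after seeing the data. With each array left out in turn, limma called 4 to 7 higher, 24 to 50 lower, medians of -0.24 to -0.15, and median SDs of 0.25 to 0.29 over cyfluthrin and 0.19 to 0.21 over control arrays. Same-numbered samples had correlations of -0.273 to 0.462 in their deviations, and 2 samples correlated best with their own number, so the numbers were not taken as a pairing; with the number as a replicate block 3 members were called higher and 29 lower. The slide as a block, no filter and outlier spots kept moved no count by over 1.5 times. For the named contigs, 461 values kept their side of the threshold, 7 gained it and 7 lost it. The sign turned in 13 values of 6 contigs that were not called, contig_42, contig_531, contig_1768, contig_2945, contig_3383 and contig_8297, whose changes were 0.20 or smaller in size, and 0 of the turned values passed the threshold. With 5 spike-in probes contig_921 (adjusted p = 0.434) and contig_1367 (adjusted p = 0.472) lost their calls. Saturated spots limit what can be read of the brightest members.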
